A study of Mus musculus with 12 samples.

Results

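Stk25 encodes a serine/threonine kinase of the Ste20 family, also known as YSK1 or SOK1. Its transcript and those of 6 genes whose products act with it were followed in the hippocampus of 12 mice of 3 strains. The members were the paralogue Stk24, the binding partners Pdcd10 and Golga2, and the 3 subunits of the LKB1 kinase complex, Stk11, Strada and Cab39. Stk25 was chosen because it had the largest fall of any gene in the CSS1 strain, and its partners were chosen by role. Every array probe that the platform annotation assigns to 1 of these symbols was taken. That gave 8 probes for 7 genes, out of 39429 gene probes on the array and 21643 genes with a probe kept for testing. Cab39 had 2 probes and each other member had 1. All 8 probes passed the filter on dim signals.

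The mice were 14 days old. There were 4 mice each of Bl6 (C57BL/6J, the common inbred laboratory strain), CSS1 and CSS2. By their names CSS1 and CSS2 are chromosome substitution strains, in which 1 chromosome of the Bl6 background is replaced by that of a donor strain. The labels give neither the donor nor the chromosome, nor any other allele or treatment. The series title concerns a susceptibility gene for febrile seizures, and no mouse is labelled as having had a seizure. RNA of each mouse was hybridised with a pool of Bl6 RNA on a 2-colour array, so each value is a ratio of 1 mouse to that pool, on the log2 scale. In each strain 2 mice carried Cy3 and 2 carried Cy5, which keeps dye and strain apart. The sample labels name the hippocampus while the design text names the brain. All 8 measured marker genes of hippocampal neurons lay above the local background on all 12 arrays, the dimmest being Prox1 at 3.12 times it at its lowest. Of 39429 gene probes 39239 passed the filter on dim signals, so this cannot tell the hippocampus from the rest of the brain. The number of arrays, 4 a strain, limits the precision.

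STK25 and its paralogue STK24 (MST3) are Ste20 kinases of the GCKIII group. STK25 is held at the Golgi by the matrix protein GM130, the product of Golga2, which binds and activates it. Both kinases bind PDCD10 (CCM3), a small adaptor that links them to the STRIPAK phosphatase complex. Loss of PDCD10 in humans causes cerebral cavernous malformations. LKB1, the product of Stk11, is active in a complex with the pseudokinase STRAD (Strada) and the scaffold MO25 (Cab39). In rodent hippocampal neurons STK25 acts with LKB1, STRAD and GM130 in Golgi deployment and in setting up a single axon, and it opposes signalling from the secreted protein Reelin through the adaptor DAB1.

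The sequences just before the starts of Stk25 and Pdcd10 are shown because Stk25 is the gene whose level stood out, and because its window repeats a run of letters that the window of its adaptor nearly shares. They come from RefSeq, build GRCm38.p6, which held a window for 6 of the 7 members. Stk24 was not among them. Each sequence is the 250 bases 5′ of the annotated start, written 5′ to 3′ on the strand of the gene, which is the minus strand for both. That of Stk25 lies at chr1:93635728-93635977 and that of Pdcd10 at chr3:75556853-75557102. Capitals mark CTGGGANNTGTAGTCT, searched on both strands. It is the longest run that occurs 2 times in the Stk25 window, with N where the closest stretch of the Pdcd10 window differs.
Stk25: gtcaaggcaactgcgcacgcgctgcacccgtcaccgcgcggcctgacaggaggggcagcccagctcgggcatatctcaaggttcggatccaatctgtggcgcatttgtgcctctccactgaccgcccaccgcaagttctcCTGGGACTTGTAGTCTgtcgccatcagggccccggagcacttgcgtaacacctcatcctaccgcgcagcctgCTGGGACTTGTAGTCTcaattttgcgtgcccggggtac
Pdcd10: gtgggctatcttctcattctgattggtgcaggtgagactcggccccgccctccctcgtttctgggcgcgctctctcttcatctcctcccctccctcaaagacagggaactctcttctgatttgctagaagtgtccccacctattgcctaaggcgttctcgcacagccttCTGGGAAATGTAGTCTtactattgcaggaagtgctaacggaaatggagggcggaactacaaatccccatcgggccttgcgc
Within the 300 bases from 250 before to 50 after the start, the Stk25 run began at positions -110 and -38 and the Pdcd10 run at -81, all on the strand of the gene. The 2 genes share 14 of its 16 letters. Golga2, Stk11, Strada and Cab39 had no match in their windows. Of 32851 RefSeq windows of this length, 50 (0.152%) held the run, and the Stk25 window was the only 1 to hold it 2 times. The run was defined from these windows, so these shares carry no weight. GC content was 64% for Stk25 and 56% for Pdcd10, against a median of 52.7% over all windows, and the CpG counts were 26 and 15 against a median of 7. The letters are those of the Bl6 reference. The sequence of the CSS strains was not analysed here, and the arrays measured nothing at promoters.

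Stk25 RNA was low in every CSS1 mouse and at the Bl6 level in every CSS2 mouse. In the 4 Bl6 mice, numbered 2, 5, 8 and 11, the log2 ratio of Stk25 to the pool was 0.00, 0.03, 0.08 and -0.09. In CSS1 mice 3, 6, 9 and 12 it was -1.82, -2.03, -2.0 and -1.75. In CSS2 mice 1, 4, 7 and 10 it was 0.05, 0.09, -0.08 and -0.02. The CSS1 values did not overlap those of either other strain, and the Bl6 and CSS2 values lay among each other. The means were 0.00 ± 0.07 in Bl6, -1.90 ± 0.13 in CSS1 and 0.01 ± 0.07 in CSS2 (SD, n = 4 each). Order by level was therefore CSS1 far below, with Bl6 and CSS2 not separable within their spread.

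CSS1 lay below Bl6 by a log2 difference of -1.90 (SE 0.07, 95% interval -2.05 to -1.76), a level 3.74-fold lower. This was the largest difference of any gene between these strains, and since it is what chose Stk25 it is given with no test. The interval takes no account of that choice. With clone and predicted-gene identifiers passed over, the next falls by size were those of Mndal (-1.37), Rgs5 (-1.24) and Ifi211 (-1.14), which lay outside the rule. Against CSS2, CSS1 was lower by -1.91 on the log2 scale, or 3.76-fold, and uses the same 4 CSS1 mice. The comparison that the choice did not use was CSS2 against Bl6. Stk25 differed there by 0.01 (SE 0.07, 95% interval -0.14 to 0.15, limma adjusted p = 0.991, Benjamini-Hochberg over 39239 probes). Both comparisons with Bl6 share the same 4 Bl6 mice. In whole tissue, fewer cells of a type and less RNA per cell cannot be told apart.

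**Figure D1:**
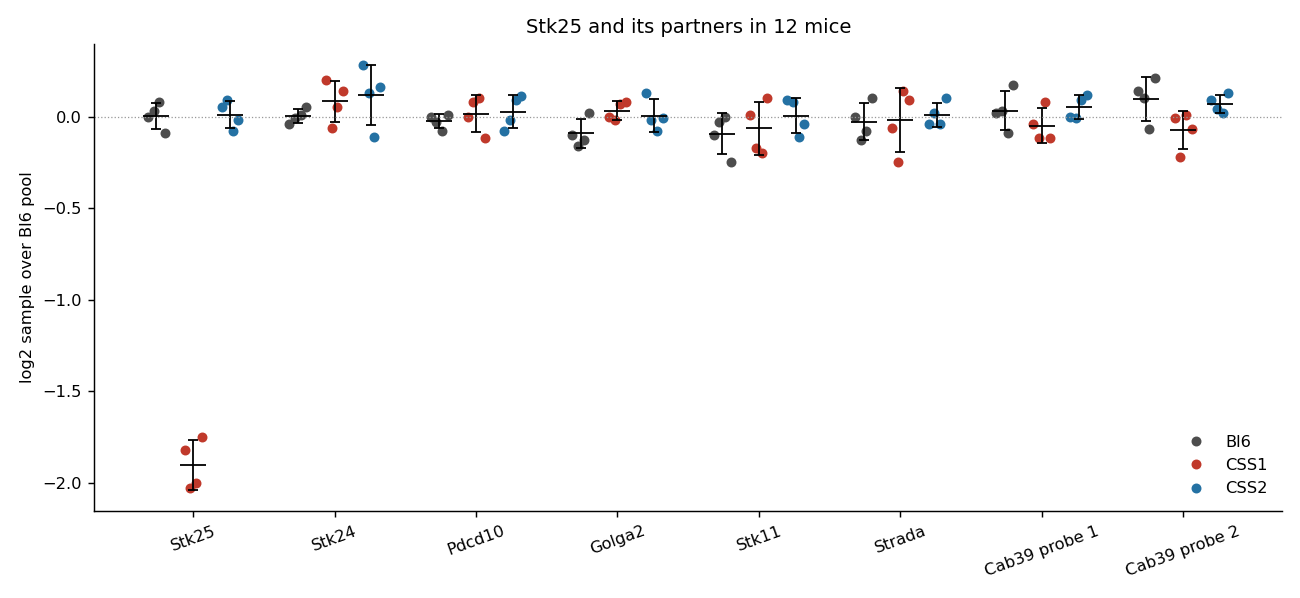
Log2 ratio of sample to Bl6 pool for each member probe (x axis) in each mouse (points) of Bl6, CSS1 and CSS2, with the strain mean and SD over 4 mice, after removal of the fitted dye effect. Stk25 in CSS1 sits between -2.03 and -1.75 while every other value of every member lies near 0.

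The raw intensities show the same order within each dye. Where the mouse carried Cy3, the sample signal of Stk25 was 6180 and 4990 in Bl6 mice 2 and 8, 1550 and 1240 in CSS1 mice 3 and 9, and 4450 and 4880 in CSS2 mice 1 and 7. With Cy5 it was 10300 and 8120 in Bl6 mice 5 and 11, 2680 and 3710 in CSS1 mice 6 and 12, and 11000 and 12200 in CSS2 mice 4 and 10. The local background was 35 to 45, so the CSS1 signal was reduced and remained far above background, and no member spot came near the highest value in the files, 65300. The channels of an array differ in overall brightness, which loess removes, so raw signals are set side by side only within a dye. After loess, within Cy3 the CSS1 minus Bl6 difference was -1.95 and within Cy5 it was -1.86. The CSS2 minus Bl6 difference was -0.05 and 0.07 in the same order. In the authors' deposited table the 4 CSS1 mice stood at -1.87, -2.06, -2.01 and -1.79. Stk25 was read by 1 probe. With 1 probe, less transcript and a transcript that binds the probe less well cannot be told apart.

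**Figure D2:**
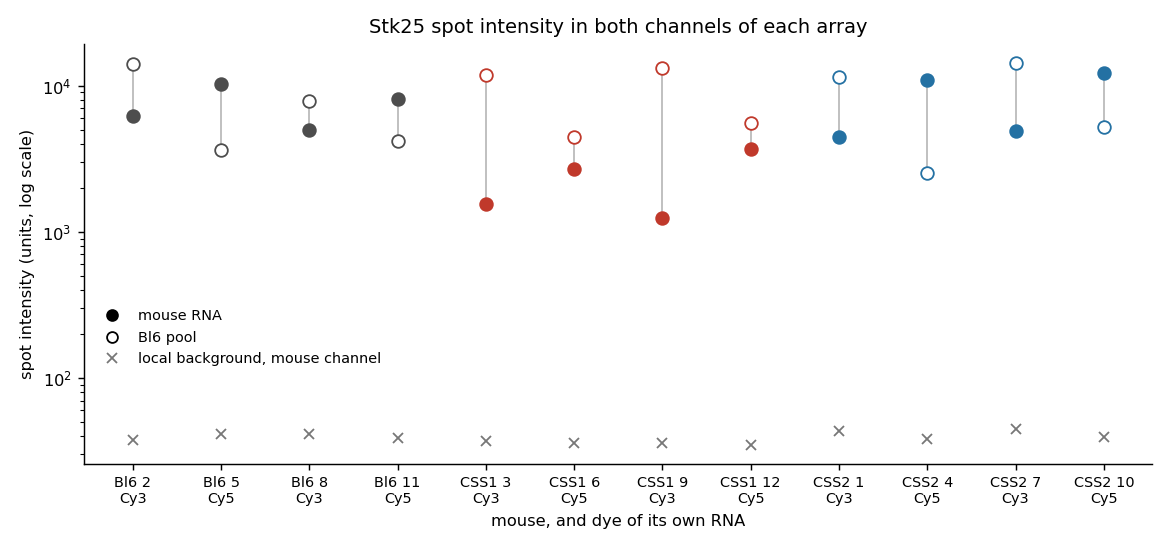
Intensity of the Stk25 probe in the sample channel and in the Bl6 pool channel of each of the 12 arrays (log axis, arbitrary scanner units), by strain and dye. With Cy3 the sample channel reads 1550 and 1240 in CSS1 against 6180 and 4990 in Bl6. With Cy5 it reads 2680 and 3710 in CSS1 against 10300 and 8120 in Bl6. Sample and pool on an array carry different dyes, so the gap between them is not the strain difference.

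None of the 6 partner genes passed an adjusted p of 0.05 in any of the 3 comparisons. Over all genes, limma called 439 of 21643 in CSS1 against Bl6, which is 2.03%. The shares were 1.04% in CSS2 against Bl6 and 0.97% in CSS1 against CSS2, so for 6 genes a count of 0 lies near the background. At an unadjusted p below 0.05, 1 partner gene (Golga2) was called in CSS1 against Bl6 and 0 in each of the other 2 comparisons. Counted by probe it was 2 of 7 in CSS1 against Bl6, the other being the dimmer probe of Cab39. The share of all genes at an unadjusted p below 0.05 is not given here. Counts at that threshold, in this and later paragraphs, therefore show neither an excess nor a lack. The median difference over all genes was 0.00 in each comparison, with an SD of 0.11, 0.10 and 0.10.

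Stk24, the paralogue with the same kinase fold and the same adaptor, showed no called difference in the mice in which Stk25 was low. Its log2 ratios were -0.04, -0.01, 0.01 and 0.05 in Bl6, 0.20, -0.06, 0.05 and 0.14 in CSS1, and 0.28, 0.13, -0.11 and 0.16 in CSS2. All 3 strains overlapped, and both CSS strains were more spread than Bl6. The CSS1 minus Bl6 difference was 0.08 (95% interval -0.09 to 0.25, limma adjusted p = 0.838), and CSS2 minus Bl6 was 0.11 (-0.06 to 0.28, adjusted p = 0.777). Those intervals leave out a rise of the size of the Stk25 fall, and they do not show that the strains are equal. The other kinase of the group, Stk26 (MST4), differed by 0.02 in each CSS strain.

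Pdcd10, the adaptor, also overlapped between strains. Its values were 0.00, -0.03, -0.08 and 0.01 in Bl6, 0.00, 0.08, 0.10 and -0.12 in CSS1, and -0.08, -0.02, 0.09 and 0.11 in CSS2. CSS1 minus Bl6 was 0.04 (95% interval -0.09 to 0.16, limma adjusted p = 0.927) and CSS2 minus Bl6 was 0.05 (-0.08 to 0.17, adjusted p = 0.909). Its level was 0.02 ± 0.10 in the CSS1 mice in which Stk25 was -1.90 ± 0.13 (SD, n = 4 each). The part of the run that its promoter window nearly shares with that of Stk25 was not tested for either level.

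Golga2, the Golgi anchor of STK25, had the lowest p in CSS1 against Bl6 when the brightest probe stood for each partner gene. It stood at -0.10, -0.16, -0.13 and 0.02 in Bl6, 0.00, -0.02, 0.07 and 0.08 in CSS1, and 0.13, -0.02, -0.08 and -0.01 in CSS2. The highest Bl6 mouse lay above 2 of the CSS1 mice, so the strains overlapped. CSS1 exceeded Bl6 by 0.12 (95% interval 0.00 to 0.24), and the adjusted p from limma was 0.418. CSS2 minus Bl6 was 0.09 (-0.02 to 0.21, adjusted p = 0.68). Golga2 is on chromosome 2.

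Within the LKB1 complex, the kinase Stk11 read -0.10, -0.03, 0.00 and -0.25 in Bl6, 0.01, -0.17, -0.20 and 0.10 in CSS1, and 0.09, 0.08, -0.11 and -0.04 in CSS2. The CSS1 minus Bl6 difference was 0.03 (95% interval -0.15 to 0.20, limma adjusted p = 0.969), and CSS2 minus Bl6 was 0.10 (-0.07 to 0.28, adjusted p = 0.815). Strada, which encodes the pseudokinase that activates LKB1, read 0.00, -0.13, -0.08 and 0.10 in Bl6, -0.06, -0.25, 0.14 and 0.09 in CSS1, and -0.04, 0.02, -0.04 and 0.10 in CSS2. It differed by 0.01 (-0.17 to 0.18, adjusted p = 0.995) in CSS1 and by 0.04 (-0.14 to 0.21, adjusted p = 0.962) in CSS2. For both genes the 3 strains overlapped.

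Cab39, which encodes the scaffold of the complex, is the other member on chromosome 1. Its brighter probe read 0.02, 0.03, -0.09 and 0.17 in Bl6, -0.04, -0.12, 0.08 and -0.12 in CSS1, and 0.00, -0.01, 0.09 and 0.12 in CSS2. The other probe read 0.14, 0.10, -0.07 and 0.21 in Bl6, -0.01, -0.22, 0.01 and -0.07 in CSS1, and 0.09, 0.04, 0.02 and 0.13 in CSS2. Both probes had their lowest strain mean in CSS1, and Bl6 and CSS1 overlapped on each. The CSS1 minus Bl6 differences were -0.08 (95% interval -0.22 to 0.05, limma adjusted p = 0.753) and -0.17 (-0.31 to -0.02, unadjusted p = 0.0285, adjusted p = 0.347), the latter the lowest p of any partner probe in that comparison. On the dimmer probe all 4 CSS1 values lay below all 4 CSS2 values, with a difference of -0.14 (-0.29 to 0.00) and an adjusted p of 0.622. The CSS1 minus Bl6 difference was 0.05 and -0.03 where the mice carried Cy3 and -0.22 and -0.30 where they carried Cy5. Each of these values rests on 2 mice a strain, and a change of the difference with dye was not tested. The Cab39 probes were also the member probes with the largest fitted dye effects, -0.18 and -0.23.

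Set directly between CSS1 and CSS2, the partners other than Cab39 differed by -0.07 (Stk11) to 0.03 (Golga2), and the adjusted p from limma lay between 0.918 and 0.991. Across the 12 mice Pearson's r with Stk25 ran from -0.42 for Golga2 to 0.43 for Cab39, and Spearman's rank correlation from -0.49 for Pdcd10 to 0.47 for Stk11. These are descriptions over mice that share 1 pool, and r is mostly set by the 4 CSS1 mice.

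Stk25 and Cab39 are both on chromosome 1, with 102 measured genes between them in the RefSeq gene order. The nearest genes showed no difference of the size seen in Stk25. Of the 10 nearest measured genes on each side of Stk25, 0 of 20 were called in CSS1 against Bl6, where the share was 7.89% over the 1178 genes of chromosome 1. At an unadjusted p below 0.05 there were 2. Their differences ran from -0.18 to 0.19 with a median of 0.02. The next gene on one side, Bok, which encodes a BCL2 family protein, differed by 0.07 (adjusted p = 0.83), and the next on the other side, Farp2, by 0.19 (95% interval 0.07 to 0.32, adjusted p = 0.15). Dtymk, the thymidylate kinase gene, had the lowest value, -0.18 (-0.30 to -0.06, adjusted p = 0.181), still far from the -1.90 of Stk25.

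Around Cab39, 2 of 20 neighbours (10%) fell in CSS1 against Bl6, near the 7.89% of all chromosome 1 genes, and 3 had an unadjusted p below 0.05. Ncl encodes nucleolin, the main nucleolar RNA-binding protein. It stood at 0.01 ± 0.03 in Bl6, -0.24 ± 0.05 in CSS1 and -0.04 ± 0.05 in CSS2 (SD, n = 4 each), a CSS1 minus Bl6 difference of -0.25 (SE 0.04, limma adjusted p = 0.00605). The mean over all probes of Ncl gave -0.07 (adjusted p = 0.653), so that call rests on its brightest probe. 4933407L21Rik, a gene known by its clone name, stood at -0.02 ± 0.04, -0.31 ± 0.07 and -0.02 ± 0.08 in the same order, a difference of -0.29 (SE 0.05, adjusted p = 0.0135). Itm2c, which encodes a BRI family membrane protein, had the highest value of the 40 neighbours, 0.38 (95% interval 0.08 to 0.68, adjusted p = 0.266). In CSS2 against Bl6, limma called 0 of the 40 neighbours, and 1 had an unadjusted p below 0.05, where the share called over chromosome 1 was 0.934%.

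**Figure D3:**
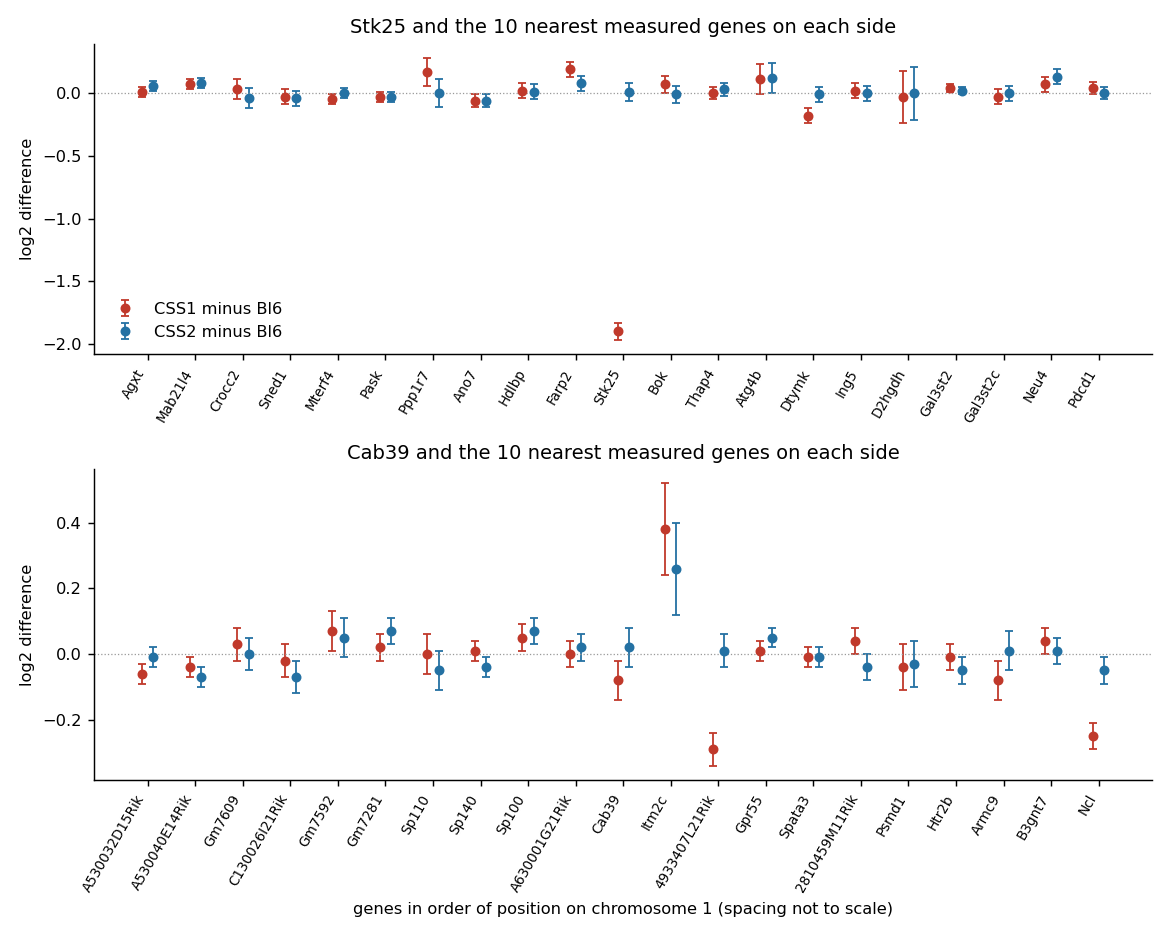
Log2 difference from Bl6 (y axis) of CSS1 and CSS2 for Stk25, Cab39 and the 10 measured genes on each side of each, in gene order along chromosome 1 (x axis, spacing not to scale). Bars are SE of the fit, and the 2 panels have different y scales. Stk25 is at -1.90 in CSS1, and the 40 neighbours lie between -0.29 and 0.38.

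Among 94 measured genes of the pathways around STK25, 1 (1.06%) was called in CSS1 against Bl6 and 1 in CSS2 against Bl6, near the 2.03% and 1.04% of all genes. By unadjusted p below 0.05 the counts were 9 and 8, with no share of all genes at that threshold to set beside them. The 94 genes had a median difference of 0.02 in CSS1 and 0.01 in CSS2, against 0.00 over all genes. None was called in CSS1 against CSS2, where 9 had an unadjusted p below 0.05. Both called genes belong to the wider Ste20 kinase family.

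Mink1, a Ste20 kinase of the germinal centre group that acts on JNK and p38 signalling, rose in CSS1. Its log2 ratios were -0.20, -0.21, -0.07 and -0.18 in Bl6, 0.17, 0.32, 0.12 and 0.08 in CSS1, and 0.07, 0.03, -0.13 and -0.07 in CSS2. All 4 CSS1 mice were above all mice of the other strains. The CSS1 minus Bl6 difference was 0.34 (SE 0.06, 95% interval 0.20 to 0.47, 1.26-fold, limma adjusted p = 0.0192), and CSS2 minus Bl6 was 0.14 (adjusted p = 0.524). The call was lost without Bl6 mouse 2, 5 or 11 or CSS1 mouse 3, with adjusted p between 0.0583 and 0.0812.

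Taok3, which encodes a TAO kinase upstream of p38, fell in CSS2. It read 0.14, 0.14, 0.22 and 0.21 in Bl6, -0.19, -0.09, -0.03 and -0.10 in CSS2, and 0.03, 0.06, 0.01 and -0.05 in CSS1. The Bl6 mice were above every CSS mouse. CSS2 minus Bl6 was -0.28 (SE 0.04, 95% interval -0.37 to -0.19, limma adjusted p = 0.00874), 1.21-fold lower, and CSS1 minus Bl6 was -0.16 (adjusted p = 0.091). The mean over all probes of Taok3 gave -0.18 in CSS2 (adjusted p = 0.126).

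Of the 14 measured genes of the GCKIII and STRIPAK list, 0 were called in either CSS strain, and 3 had an unadjusted p below 0.05 in CSS1 and 1 in CSS2. Their CSS1 minus Bl6 differences ran from -0.15 to 0.24. Fgfr1op2, a STRIPAK-associated coiled-coil protein gene, had the highest, 0.24 (limma adjusted p = 0.15), with means of -0.02 ± 0.11 in Bl6 and 0.21 ± 0.09 in CSS1 (SD, n = 4 each). Cttnbp2nl, which encodes a cortactin-binding protein of the complex, had -0.15 (adjusted p = 0.301) and Mob4, its MOB family subunit, had -0.14 (adjusted p = 0.224). In CSS2 the lowest was Sike1, which encodes a STRIPAK-binding suppressor of IKK-epsilon, at -0.13 (adjusted p = 0.483).

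The 9 measured genes of the cavernous malformation proteins and their MEKK3 axis gave 0 calls and 0 unadjusted p below 0.05 in either strain. Krit1 (CCM1), the scaffold that joins PDCD10 through CCM2, differed by 0.12 in CSS1 (limma adjusted p = 0.747), and Ccm2 by -0.08 (adjusted p = 0.705). Klf2, a transcription factor downstream of MEKK3, differed by 0.18 (adjusted p = 0.659), and its CSS1 values spread from -0.12 to 0.48. The MEK5 gene Map2k5 and the ERK5 gene Mapk7, the kinases below MEKK3, differed by 0.06 and -0.06. Map3k3, which encodes MEKK3 itself, had the lowest value in CSS2, -0.40 (adjusted p = 0.777), and that rests on CSS2 mouse 7 at -1.40 beside 0.19, -0.08 and -0.12 in the others. The value moved to between -0.60 and -0.01 as single mice were left out.

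None of the 15 measured Golgi matrix and tethering genes was called, and none had an unadjusted p below 0.05, in either strain against Bl6. Their CSS1 minus Bl6 differences ran from -0.06 to 0.15. The highest was that of Rab2a, a Golgi Rab GTPase gene (0.15, limma adjusted p = 0.501). Gorasp1, which encodes GRASP65, the Golgi stacking protein that binds GM130, differed by 0.09 (adjusted p = 0.72). Gcc1, a trans-Golgi golgin gene, differed by 0.08 (adjusted p = 0.73).

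The LKB1 list held 20 measured genes, for paralogues of the complex, LKB1-activated kinases and the other subunits of 1 such kinase, AMPK. Of these genes 0 were called and 1 had an unadjusted p below 0.05 in each CSS strain against Bl6. The paralogues Stradb and Cab39l differed by -0.02 and -0.09 in CSS1. Brsk2, an LKB1-activated kinase gene of axon specification, differed by 0.12 (limma adjusted p = 0.484), and the salt-inducible kinase gene Sik3 by 0.22 (adjusted p = 0.407), the highest of the list. Prkaa2, the AMPK catalytic subunit gene, was -0.17 in CSS2 (adjusted p = 0.078, or 0.0364 with a block of consecutive mouse numbers and 0.0316 with array weights), with 0.12 ± 0.02 in Bl6 and -0.05 ± 0.04 in CSS2 (SD, n = 4 each). The AMPK beta subunit gene Prkab2 was -0.08 in CSS2 (adjusted p = 0.647).

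The Reelin list, whose pathway STK25 opposes, gave 0 calls of 14 in either strain, with 2 unadjusted p below 0.05 in each. Lrp8, which encodes the Reelin receptor ApoER2, was the nearest to a call. Its mean was -0.04 ± 0.12 in Bl6, -0.36 ± 0.07 in CSS1 and -0.19 ± 0.11 in CSS2 (SD, n = 4 each), and the Bl6 range of -0.17 to 0.11 did not overlap the CSS1 range of -0.44 to -0.27. The CSS1 minus Bl6 difference was -0.31 (SE 0.07, 95% interval -0.47 to -0.16, limma adjusted p = 0.0508). The adjusted p ran from 0.0161 to 0.558 under the other settings and from 0.0468 to 0.177 with a mouse left out, and the mean over all probes of Lrp8 gave -0.20. Reln itself differed by -0.17 (adjusted p = 0.311), the other receptor gene Vldlr by -0.04 (adjusted p = 0.908), and Dab1 by 0.08. In CSS2 the 2 genes with an unadjusted p below 0.05 were Vldlr at -0.15 (adjusted p = 0.378) and Rap1a, a small GTPase gene downstream of DAB1, at 0.23 (adjusted p = 0.342). The 7 genes of the 14-3-3 list, phosphoprotein adaptors that include a substrate of STK25, also gave 0 calls, with 1 unadjusted p below 0.05 in CSS1 and 0 in CSS2. Ywhah had the highest CSS1 value, 0.21 (adjusted p = 0.42), and Ywhag the lowest, -0.15 (adjusted p = 0.72). In CSS2 Ywhab differed by 0.15 (adjusted p = 0.595).

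**Figure D4:**
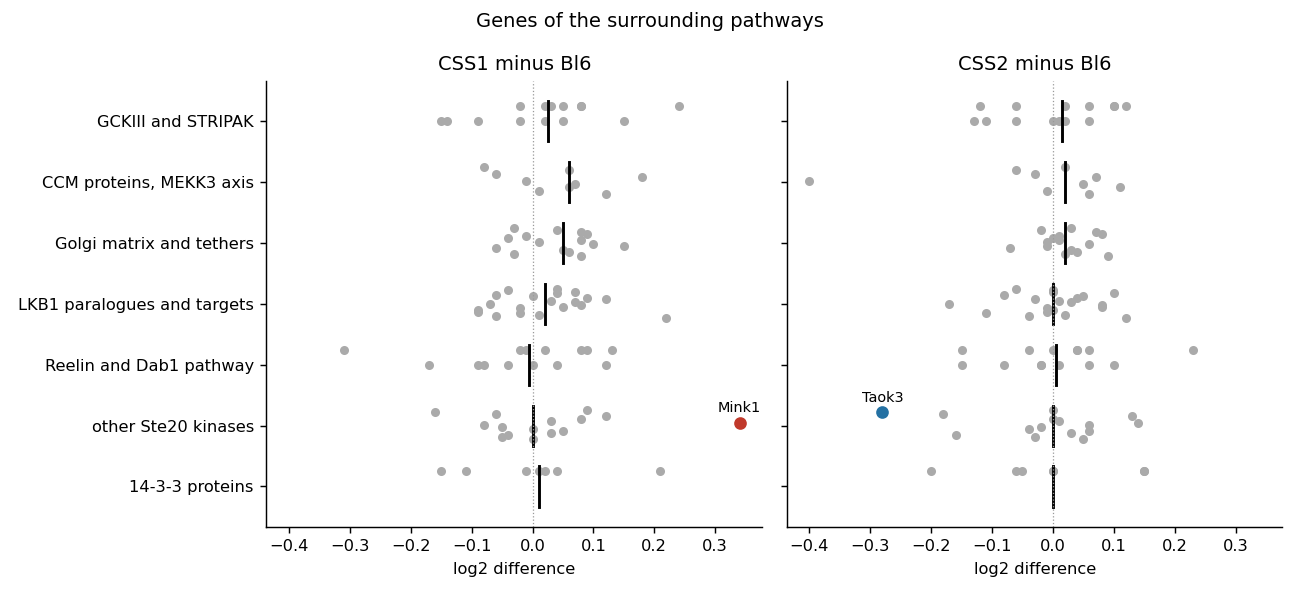
Log2 difference from Bl6 of each measured gene (points) of the 7 pathway lists in CSS1 and CSS2, with the list median as a bar (x axis, log2 scale). List medians lie between 0.00 and 0.06, and the 2 named, coloured points are the genes called, Mink1 in CSS1 and Taok3 in CSS2.

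The genes whose values over the 12 mice were most like those of Stk25, by Pearson's r over 19225 genes compared, were Vmn2r111 (0.99), Npas2 (0.99), Ifi211 (0.98), Rgs5 (0.98) and Chst10 (0.98). The most opposed were Lyplal1 (-0.99), Myl1 (-0.98), Ipo9 (-0.97), Kcnj9 (-0.97) and Klhdc9 (-0.97). All but Vmn2r111, on chromosome 17, are on chromosome 1 like Stk25. The likeness describes the step between the CSS1 mice and the other 8 mice. Npas2, a clock transcription factor gene, ran from -0.89 to -0.79 in CSS1 and from -0.12 to 0.07 elsewhere. Myl1, a muscle myosin light chain gene, ran from 1.06 to 1.40 in CSS1 and from -0.09 to 0.12 elsewhere. Their Spearman rank correlation, which uses the order within the strains too, was 0.90 and -0.66. Vmn2r111, a vomeronasal receptor gene, moved by only -0.29 in CSS1, so a high r does not stand for an equal size of change.

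**Figure D5:**
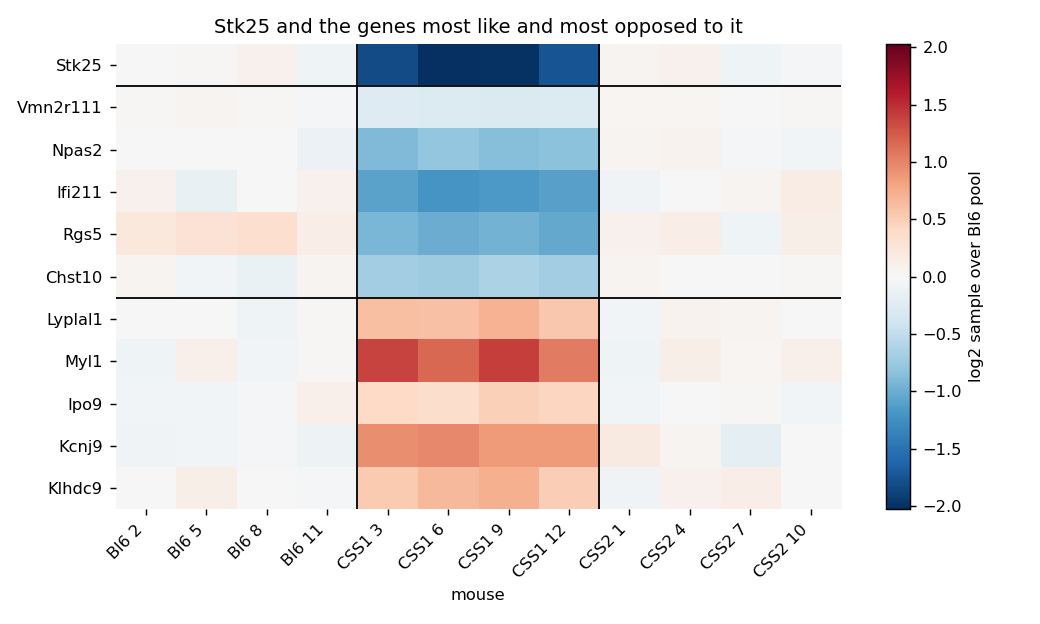
Log2 ratio of sample to pool over the 12 mice for Stk25 and the 5 genes most like it and the 5 most opposed by Pearson's r. Each row is a gene, each column a mouse and colour the ratio, blue below and red above the pool. The CSS1 columns separate from the other 8 in every row, and Stk25 is the deepest at -2.03 to -1.75. Both follow from how the genes were chosen.

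Some cell type marker lists held more called genes than the 2.03% (CSS1) and 1.04% (CSS2) of all genes. The per-mouse median of the 7 measured oligodendrocyte markers was -0.02 ± 0.23 in Bl6 (range -0.32 to 0.24), 0.59 ± 0.13 in CSS1 (0.44 to 0.74) and 0.61 ± 0.21 in CSS2 (0.36 to 0.88, SD, n = 4 each). Of these markers limma called 4 of 7 higher in CSS1 and 3 of 7 in CSS2. Dividing cell markers were called lower for 6 of 7 in CSS1 and 1 of 7 in CSS2, and astrocyte markers higher for 2 and 1 of 8. Of 8 endothelial markers 1 was called in CSS1 and 0 in CSS2, and of 8 microglial and 8 hippocampal neuron markers 0 were called in either, with 2 and 0 microglial and 3 and 3 neuronal markers at an unadjusted p below 0.05. The part of these lists in the Stk25 level was not tested.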

How the data were processed

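The authors deposited, for each of the 12 arrays, the scanner intensity of both channels and the local background per spot, and a table of log2 ratios of sample to reference, and the sources used here do not say how that table was normalised. Its columns correlated with the scanner ratios turned to sample over pool at r = 0.49 to 0.82, which sets its direction, and it served as an alternative. Its column medians lay between -0.00502 and 0.00585.

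From the intensities, limma 3.58.1 in R 4.3.3 subtracted background (normexp, offset 50) and fitted loess within each array, with control and quality spots at weight 0. All ratios were turned to sample over pool. Of 39429 gene probes, 190 with a mean log2 intensity under 6.23 were left out. That limit is the 95th percentile of the 1580 spots of 3 control types at background. The median sample intensity per array was 188 to 408. A model with strain and dye orientation was fitted to all 12 arrays with empirical Bayes variances, and each comparison was adjusted over its 39239 kept probes (Benjamini-Hochberg, threshold 0.05). The brightest kept probe stood for a gene. Values per mouse are after removal of the fitted dye effect. Each array is a separate mouse per the series design. The scripts were tested on simulated data.

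Symbols came from the platform annotation, brought up to date through RefSeq, GRCm38.p6, which also gave chromosomes and gene order. No source used here names the build of the array annotation. The members and lists were chosen with earlier results of these data known. The text names all member probes, the next 3 falls, called genes of each list or else up to 2 by p in each strain, called neighbours, and the 5 most like and 5 most opposed genes. Outside that rule, Stk26, Krit1, Ccm2, Stradb, Cab39l and Dab1 were named for their role, Bok and Farp2 as nearest genes, and Dtymk and Itm2c after their values were seen. Alternatives changed the normalisation, background step, model terms, probe summary and the mice included.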

Additional observations from a re-analysis of the deposited data

Results flagged for a closer look

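In the Reelin list, Rap1a, which encodes a small GTPase downstream of DAB1, had 1 CSS2 mouse apart from the others. Mouse 10 read 0.42 while the other 3 lay between 0.21 and 0.22, a gap of 0.941 of the range of the group against a limit of 0.829 for 4 values. This was 1 of 102 groups of 4 mice examined, where chance marks about 1 in 20. None of the 24 groups of member values was marked.

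The chromosome 1 neighbours of Cab39 that fell in CSS1 were also called directly between the CSS strains. That comparison reuses the CSS1 mice by which these neighbours were chosen, so it is not separate support. 4933407L21Rik was lower in CSS1 than in CSS2 by -0.29 (limma adjusted p = 0.0133) and Ncl by -0.20 (adjusted p = 0.0232), on the log2 scale. Ncl lost this call with the mean over its probes (-0.02, adjusted p = 0.958), median centring (0.32), no dye term (0.167) and only these 2 strains (0.0958), and on leaving out any of mice 6, 9 and 12 of CSS1 and mice 1 and 10 of CSS2 (0.0641 to 0.0967). 4933407L21Rik lost it with scale normalisation (0.0558), median centring (0.0626) and only these 2 strains (0.0665), and without CSS1 mouse 3 (0.0611) or CSS2 mouse 4 (0.0573).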

How the results depend on the processing

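The Stk25 difference between CSS1 and Bl6 lay between -1.96 and -1.86 with each mouse left out in turn and between -1.93 and -1.80 under the other settings, and CSS2 against Bl6 stayed between -0.03 and 0.05. The count of partner genes called was 0 in each comparison under all 22 alternatives. Of 2157 recomputed values of 99 single results, each a gene or probe in 1 comparison, 30 lost a call, 9 gained one and 0 reversed.

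The count of called neighbours of Stk25 and Cab39 in CSS1, 2 as reported, was 4 with array weights and 1 with scale normalisation, the mean over probes or median centring, and 1 to 2 with a mouse left out. The count of pathway genes called in CSS1, 1 as reported, was 3 with array weights, 2 with a block of consecutive mouse numbers, scale normalisation, no background subtraction or the authors' deposited values, 0 with median centring or only the 2 strains compared, and 0 to 2 with a mouse left out. In CSS2 it was 2 with array weights, 3 with the block, 0 with scale normalisation, the mean over probes, median centring or no dye term, and 1 to 1 with a mouse left out.

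Over the whole table, 680 probes were called in CSS1 against Bl6. That became 1682 with array weights, 404 with scale normalisation, 177 under median centring, 219 if dye was not modelled, 355 on the arrays of those 2 strains alone, and 247 to 816 with a mouse left out (lowest in the absence of Bl6 mouse 2 at 247, CSS1 mouse 3 at 277, Bl6 mouse 5 at 316, Bl6 mouse 11 at 406 and CSS1 mouse 9 at 416). For CSS2 against Bl6 the 355 probes became 555, 130, 179 and 149 under the same first 4 settings, 545 with the block, and 169 to 357 with a mouse left out (lowest in the absence of CSS2 mouse 10 at 169, Bl6 mouse 2 at 177, Bl6 mouse 5 at 187, CSS2 mouse 4 at 216, CSS2 mouse 1 at 218 and Bl6 mouse 11 at 236). For CSS1 against CSS2 the 360 became 228 with scale normalisation, 163 under median centring, 211 if dye was not modelled, 236 on the arrays of those 2 strains alone, and 237 to 369 with a mouse left out. The cause of these shifts was not tested.

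Mink1 lost its CSS1 call with median centring (adjusted p = 0.218) and with only the 2 strains (0.0529). Taok3 lost its CSS2 call with scale normalisation (0.0916), median centring (0.315), the mean over probes (0.126) and no dye term (0.0547). Ncl lost its CSS1 call with median centring (0.224) and the mean over probes (0.653), and 4933407L21Rik with scale normalisation (0.0531) or without Bl6 mouse 2 or 5 or CSS1 mouse 3 (0.0541 to 0.0576). The labels give the strains no shared replicate number. Consecutive mouse numbers run CSS2, Bl6 and CSS1 in turn, with the same dye within each such run. The labels do not say whether such a run was handled together, and the main model holds no term for it. The block of consecutive mouse numbers took the place of the dye term, and among the named genes it gained calls for Lrp8 in CSS1 (0.0264) and Prkaa2 in CSS2 (0.0364). A block for slide or scan was not run, since the files name neither. A single probe for 6 of the 7 members and 4 mice a strain limit what the arrays resolve.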
